A study of Oryza sativa with 60 samples.

Results

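The miR393 family was represented by 3 mature entries in the miRNA count tables of rice anthers, osa-miR393a, osa-miR393b-5p and osa-miR393b-3p. They were chosen by name alone, as every entry called osa-miR393 followed by a character other than a digit, out of 582 entries. Each of the 3 had reads in 30 of 30 libraries, and all 3 were among the 371 entries that passed the filter on low counts. The small RNA libraries came from anthers of greenhouse-grown wild-type Kitaake rice, a japonica cultivar, sampled at 10 anther lengths with 3 biological replicates each. All groups shared genotype and tissue and differed in anther length, which increases as the anther develops. Many anthers were pooled per sample, and the tissue could not be checked against marker mRNAs, since the gene IDs of the mRNA tables carry no names.

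The length in a library's title differed from the length in the name of its count table in 30 of 30 small RNA libraries. Each group of 3 held the same libraries under either label, so the test over all lengths does not depend on it. The order of the groups, the steps between neighbouring lengths and the joined groups of early, mid and late anthers do. Lengths given here are those of the count tables, in the order 0.4, 0.6, 0.8, 1.0, 1.2, 1.4, 1.6, 1.8, 2.0 and 2.5 mm, and the titles of these groups read 1.8, 2.0, 2.5, 0.4, 0.6, 0.8, 1.0, 1.2, 1.4 and 1.6 mm. Which of these labels is right was not tested. The libraries held 7527 to 584897 miRNA reads, with a median of 227720.5, so that 3 counts corresponded to 5.13 to 399 CPM. CPM here means counts after scaling each library's miRNA reads to a total of 1e6. The library with the fewest reads, 0.8 mm replicate 1, held 14 miR393 reads.

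Plant miRNAs are cut from hairpin precursors as a duplex, and the strand that is kept guides an ARGONAUTE protein to matching mRNAs. The 5p strand of miR393 is known for its target sites in mRNAs of the TIR1/AFB F-box proteins, which are auxin receptors and the substrate-binding part of a ubiquitin ligase that removes Aux/IAA repressors. A higher level of the miRNA is therefore known to lower the sensitivity of cells to auxin. Auxin signalling acts in late anther development, in filament growth, pollen maturation and the timing of dehiscence, as shown mainly in Arabidopsis. osa-miR393a and osa-miR393b-5p are both 5p products, whereas osa-miR393b-3p comes from the opposite arm of its hairpin. In Arabidopsis the corresponding 3p strand has a target of its own, a mRNA for a Golgi-localised SNARE protein, in antibacterial defence.

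By the lengths of the count tables, miR393 was a minor family in the shortest anthers and a major one in the longest. Summed over the 3 entries it took 0.130% ± 0.00608 of all miRNA reads at 0.4 mm, 0.835% ± 0.715 at 2.0 mm and 6.28% ± 2.56 at 2.5 mm (SD, n = 3 each). In the 0.4, 0.6 and 0.8 mm groups the family sum averaged 1299 ± 60.8, 2129 ± 239 and 1970.3 ± 1012 CPM, and in the 1.0, 1.2 and 1.4 mm groups 1874 ± 2071, 1371 ± 789 and 3232 ± 1060 CPM (SD, n = 3 each). The 1.6, 1.8, 2.0 and 2.5 mm groups averaged 4478 ± 2479, 5341 ± 2895, 8352 ± 7145 and 62818 ± 25631 CPM (SD, n = 3 each). The mean at 2.5 mm was 7.52 times that at 2.0 mm and 48.4 times that at 0.4 mm. Of the 92669 miR393 reads in the 30 libraries, 69.5% lay in the 3 libraries of 2.5 mm, which held 13.6% of all miRNA reads. By titles, these 3 libraries are anthers of 1.6 mm. In the shortest and longest anthers by title, 0.4 and 2.5 mm, the family took 0.187% ± 0.207 and 0.197% ± 0.101 of miRNA reads (SD, n = 3 each).

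**Figure D1:**
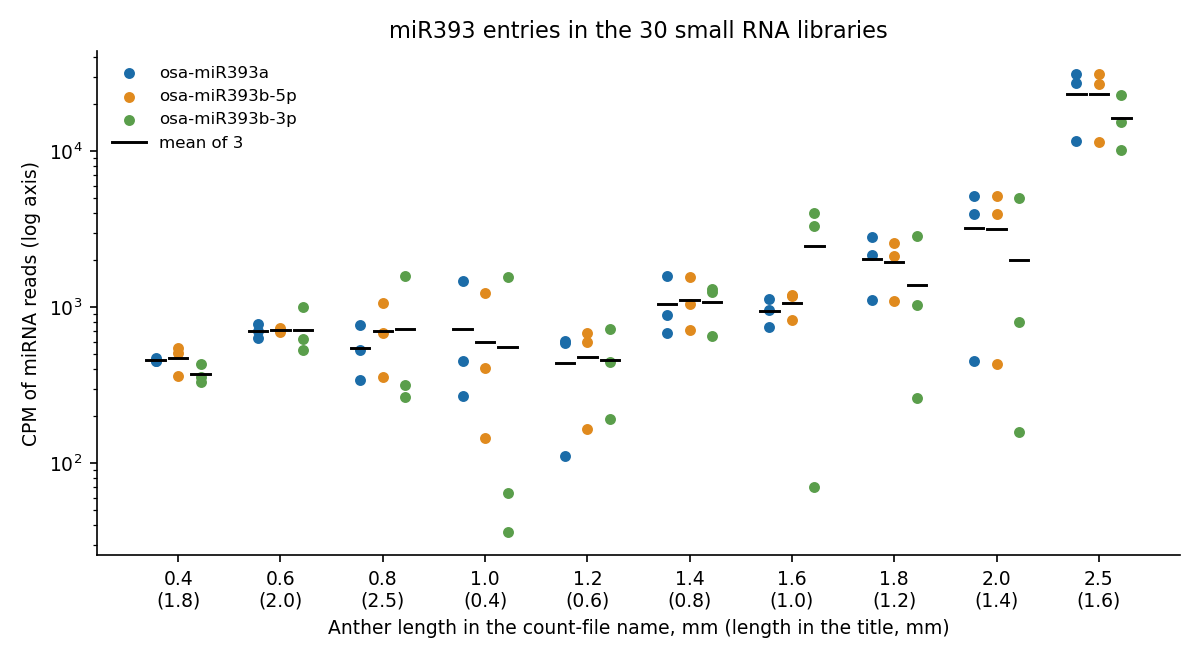
CPM of each miR393 entry (log axis) in every library, by anther length in the count table's name with the length of the title in brackets; points are libraries and bars the mean of 3. All 9 points at 2.5 mm lie above every point of the same entry at the other lengths.

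osa-miR393b-5p was the most abundant entry by mean CPM, with 3349.5 CPM over the 30 libraries, which placed it at rank 35 of 582. The margin was slight, since osa-miR393a had a mean of 3341 CPM and more reads in total, 33770 against 33689. The levels of osa-miR393b-5p in replicates 1, 2 and 3 were 359, 504 and 542 CPM at 0.4 mm, 691, 729 and 708 CPM at 0.6 mm, and 1063, 358 and 681 CPM at 0.8 mm. At 1.0 mm they were 144, 1237 and 408 CPM, at 1.2 mm 593, 684 and 165 CPM, and at 1.4 mm 713, 1051 and 1569 CPM. Up to 1.2 mm the groups overlapped, save that all 0.6 mm libraries lay above those of 0.4 and 1.2 mm, and the 1.4 mm group began within the range of the shorter anthers. At 1.6 mm the replicates had 1177, 1195 and 823 CPM, at 1.8 mm 2122, 1101 and 2581 CPM, at 2.0 mm 3930.2, 434 and 5145 CPM, and at 2.5 mm 31338, 26953 and 11485 CPM. The lowest 2.5 mm library was thus 2.23 times the highest library of any other length, 2.0 mm replicate 3, while 2.0 mm replicate 2 lay within the range of the groups up to 1.2 mm. How many of the 582 entries also had all 2.5 mm libraries above all others was not counted.

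osa-miR393a followed the same course at nearly the same level. It had 453, 451 and 469 CPM at 0.4 mm, 775, 632 and 698 CPM at 0.6 mm, and 531, 341 and 769 CPM at 0.8 mm. In the middle of the series its levels were 269, 1460.1 and 451 CPM at 1.0 mm, 609.7, 586 and 110.1 CPM at 1.2 mm, and 687, 891 and 1573 CPM at 1.4 mm. The 1.0 mm libraries alone spanned a wider range than the 9 libraries of the shorter anthers together. At 1.6 mm it had 962, 1121 and 739.6 CPM, at 1.8 mm 2145, 1103 and 2811 CPM, at 2.0 mm 3951, 453 and 5169 CPM, and at 2.5 mm 31212, 27224 and 11589 CPM. Among all 582 entries ordered by mean CPM it stood at rank 102 at 0.4 mm, rank 24 at 2.0 mm and rank 11 at 2.5 mm.

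osa-miR393b-3p, the strand opposite to osa-miR393b-5p, also peaked at 2.5 mm but varied more between replicates. Replicates 1, 2 and 3 had 432, 333 and 354 CPM at 0.4 mm, 529, 625 and 998 CPM at 0.6 mm, and 266, 318 and 1583 CPM at 0.8 mm. At 1.0 mm the values were 35.9, 1552 and 64.4 CPM, at 1.2 mm 727, 444 and 193 CPM, and at 1.4 mm 1243, 654 and 1313 CPM. Within the 1.0 mm group replicate 2 stood far above replicates 1 and 3, which rested on 2 and 6 reads. The longer anthers had 4032, 3315 and 69.9 CPM at 1.6 mm, 1034, 262 and 2863 CPM at 1.8 mm, 804, 159 and 5011 CPM at 2.0 mm, and 15468, 23034 and 10152 CPM at 2.5 mm. The lowest 2.5 mm library was 2.03 times the highest of the other lengths, and the spread within 1.6, 1.8 and 2.0 mm was wider than the differences between these 3 groups.

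Ordered by the mean of the family sum, the groups ran from 0.4 mm as the lowest through 1.2, 1.0, 0.8, 0.6, 1.4, 1.6, 1.8 and 2.0 mm to 2.5 mm as the highest. Neighbours in this order overlapped except at 2 places. The lowest 2.5 mm library had 33226 CPM, above the highest 2.0 mm library with 15325 CPM, and the lowest 1.4 mm library had 2596.5 CPM, just above the highest 0.6 mm library with 2404 CPM. How common such gaps are among other miRNAs was not counted. By the lengths of the titles, the peak falls at 1.6 mm and the 3 groups titled 1.8, 2.0 and 2.5 mm are among the 5 lowest. In tissue sampled in bulk, fewer cells of a type and less RNA per cell cannot be told apart.

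The 10 lengths were compared with edgeR's quasi-likelihood test over all 371 tested entries, with Benjamini-Hochberg adjustment. All 3 miR393 entries differed between lengths, with adjusted p = 7.20e-09 for osa-miR393a, 7.20e-09 for osa-miR393b-5p and 0.000122 for osa-miR393b-3p. Differences between lengths were common, however, since 67.4% of the tested entries were called in this test. With the 2.5 mm libraries left out, a choice made after the data were seen, the adjusted p was 0.000102 for osa-miR393a and 0.000136 for osa-miR393b-5p, and 0.103 for osa-miR393b-3p. The 3p entry thus passed the threshold only with the 2.5 mm libraries included.

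For contrasts, groups were joined into early anthers (0.4 to 0.8 mm), mid anthers (1.0 to 1.4 mm) and late anthers (1.6 to 2.5 mm). By titles these are anthers of 1.8 to 2.5 mm, 0.4 to 0.8 mm and 1.0 to 1.6 mm, so that late against early would set shorter against longer anthers. An entry was called where the adjusted p was under 0.05 and the log2 fold change was 1 or more in size. In late against early anthers all 3 entries were higher, in a comparison where 48% of tested entries were called higher and 24.3% lower. The log2 fold change was 2.81 for osa-miR393a (SE 0.42, edgeR adjusted p = 1.09e-06), 2.76 for osa-miR393b-5p (SE 0.42, adjusted p = 1.16e-06) and 2.59 for osa-miR393b-3p (SE 0.63, adjusted p = 0.000642). DESeq2 gave larger log2 fold changes of 4.17, 4.10 and 3.77. The median tested entry was itself 1.11 higher in late anthers, and 0.97 higher without TMM. In the 26 libraries with totals of all reads, which lack 1.6 mm, it was 1.10 higher with TMM and 2.03 higher when scaled to all reads. Relative to that median, osa-miR393a, osa-miR393b-5p and osa-miR393b-3p were 1.70, 1.65 and 1.49 higher on the log2 scale. Scaled to miRNA reads without TMM they were 1.65, 1.57 and 1.49 above the median, and in the 26 libraries 2.21, 2.09 and 1.62 with TMM and 2.00, 1.87 and 1.37 when scaled to all reads.

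The difference between late and early anthers did not rest on the 2.5 mm libraries alone. Without them, the groups of 1.6 to 2.0 mm (titled 1.0 to 1.4 mm) still exceeded those of 0.4 to 0.8 mm (titled 1.8 to 2.5 mm) by 2.40 for osa-miR393a (SE 0.39, edgeR adjusted p = 1.08e-05), by 2.35 for osa-miR393b-5p (SE 0.39, adjusted p = 1.38e-05) and by 2.05 for osa-miR393b-3p (SE 0.60, adjusted p = 0.00376), all log2 fold changes. The share of all tested entries called in this fit, and their median, were not computed. How much of these values exceeds a general shift is therefore unknown. Late against mid anthers gave log2 fold changes of 2.27, 2.32 and 2.20 for osa-miR393a, osa-miR393b-5p and osa-miR393b-3p (SE 0.41, 0.41 and 0.62, edgeR adjusted p = 3.92e-05, 2.55e-05 and 0.00444), where 27.2% of tested entries were called higher. For osa-miR393b-3p this value was 3.36 without 1.0 mm replicate 2, the library with the highest 3p level of the mid group. The 1.6 mm group consists of libraries counted against another reference set, and with these and a further such library of 1.0 mm left out all 3 entries were again called in late against early anthers, at log2 fold changes of 3.31, 3.19 and 2.72. The median tested entry was 1.10 higher in that fit, and the share of all tested entries called in it was not computed.

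Mid against early anthers showed no call for the family. The log2 fold changes were 0.54 for osa-miR393a (SE 0.41, edgeR adjusted p = 0.334), 0.44 for osa-miR393b-5p (SE 0.40, adjusted p = 0.435) and 0.39 for osa-miR393b-3p (SE 0.62, adjusted p = 0.669), while 28% of tested entries were called in either direction. None of the 3 was below an unadjusted p of 0.05, and DESeq2 called none at the same limits, although its adjusted p for osa-miR393a was 0.0243 at a log2 fold change of 0.85. Without 1.0 mm replicate 2 the value was -0.92 for osa-miR393b-3p and -0.12 for osa-miR393b-5p, so for these entries the direction of the difference rests on 1 library.

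**Figure D2:**
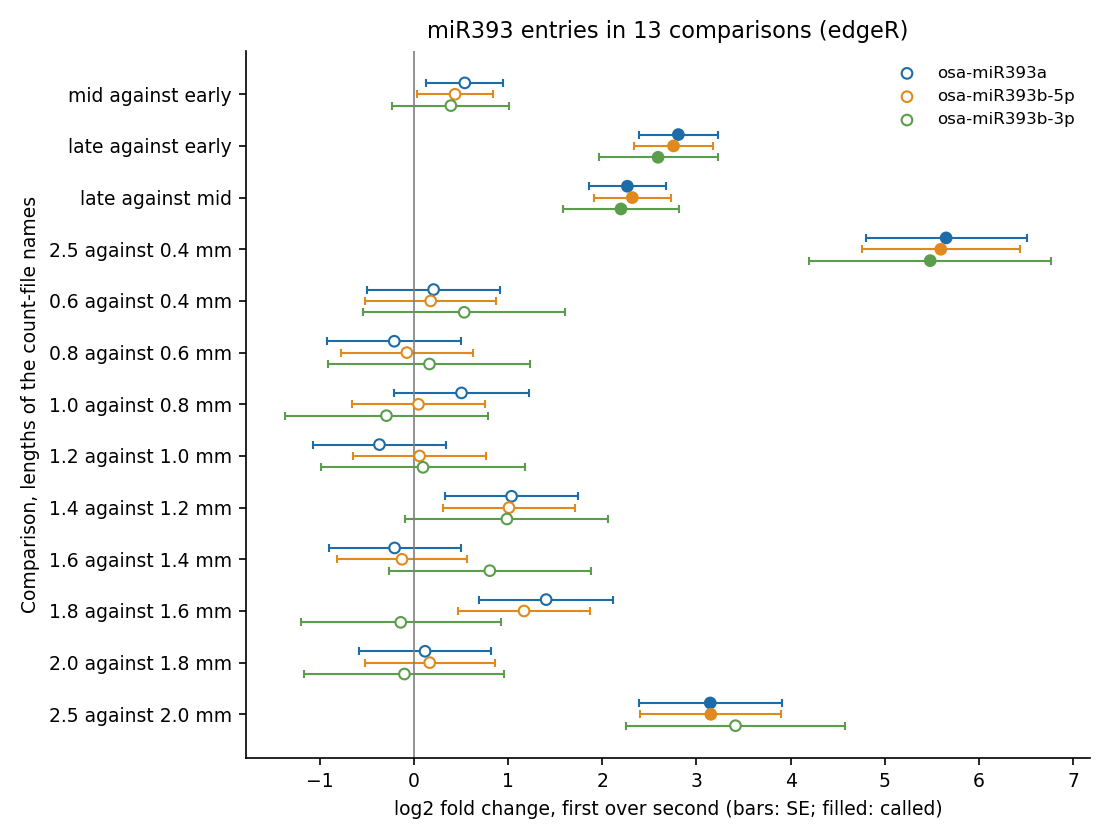
Log2 fold change of each miR393 entry in 13 comparisons of anther lengths, the group named first over the other; bars are SE and filled points were called by edgeR. All 3 entries were called in late against early, late against mid and 2.5 against 0.4 mm, no step up to 2.0 mm was called, and at 2.5 against 2.0 mm both 5p entries were.

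Between the ends of the series the difference was the largest of the contrasts run. At 2.5 mm against 0.4 mm, osa-miR393a was higher by 5.65 on the log2 scale (SE 0.85, edgeR adjusted p = 4.52e-06), osa-miR393b-5p by 5.59 (SE 0.84, adjusted p = 4.52e-06) and osa-miR393b-3p by 5.48 (SE 1.29, adjusted p = 0.000861). In this comparison 29.9% of tested entries were called higher and 19.7% lower, with a median log2 fold change of 0.85. The 3 entries ranked 19, 20 and 23 among the 371 log2 fold changes, so other miRNAs changed by more. In titles this is the pair 1.6 and 1.8 mm, 2 neighbouring lengths, between which the family would fall by the same amount in the longer anthers.

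Each length was also set against the next shorter one. Over the 8 steps up to 2.0 mm the 3 entries gave 24 tests, with log2 fold changes of -0.36 to 1.40 and a lowest adjusted p of 0.413. edgeR called 0 of these 24, 0 were below an unadjusted p of 0.05, and DESeq2 called 0. Among all tested entries the share that edgeR called was 0% in 5 of these steps and 0.809% at 0.6 against 0.4 mm and at 1.4 against 1.2 mm. It was 4.85% at 1.6 against 1.4 mm, where the reference set also changed. DESeq2 called more of the same 371 entries: 54 at 1.0 against 0.8 mm, 20 at 1.2 against 1.0 mm and 71 at 1.6 against 1.4 mm. In the other steps up to 2.0 mm it called 0 to 9. The largest of the 24 values was that of osa-miR393a at 1.8 against 1.6 mm, 1.40 (SE 0.71, edgeR adjusted p = 0.413).

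At 2.5 against 2.0 mm both 5p entries were called higher. The log2 fold change was 3.15 for osa-miR393a (SE 0.76, edgeR adjusted p = 0.0436) and 3.15 for osa-miR393b-5p (SE 0.75, adjusted p = 0.0436). These were the only 2 of 371 entries that edgeR called in this step (0.539% called higher), while DESeq2 called 10. osa-miR393b-3p had the largest increase of all 371, a log2 fold change of 3.41, but with a SE of 1.16 and an edgeR adjusted p of 0.318 it was not called. DESeq2 did call it, at a log2 fold change of 3.26 and an adjusted p of 0.0181. The median over all entries was 0.05 in this step. The call of the 5p entries is narrow: it was kept in 10 of the 82 alternatives run for these entries, with the same direction in all 82. These 10 include adjusted p alone, which reuses the main fit and could not lose a call. Without 2.0 mm replicate 2 the log2 fold change of osa-miR393b-5p was 2.52 and its edgeR adjusted p 0.576, while DESeq2 gave 2.90e-05 with all libraries. The 5p entries divided their reads almost evenly, with 50.1% in osa-miR393a, so their 2 calls cannot be taken as independent. With the counts of both summed, the edgeR adjusted p was 0.0775 and there was no call.

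**Figure D3:**
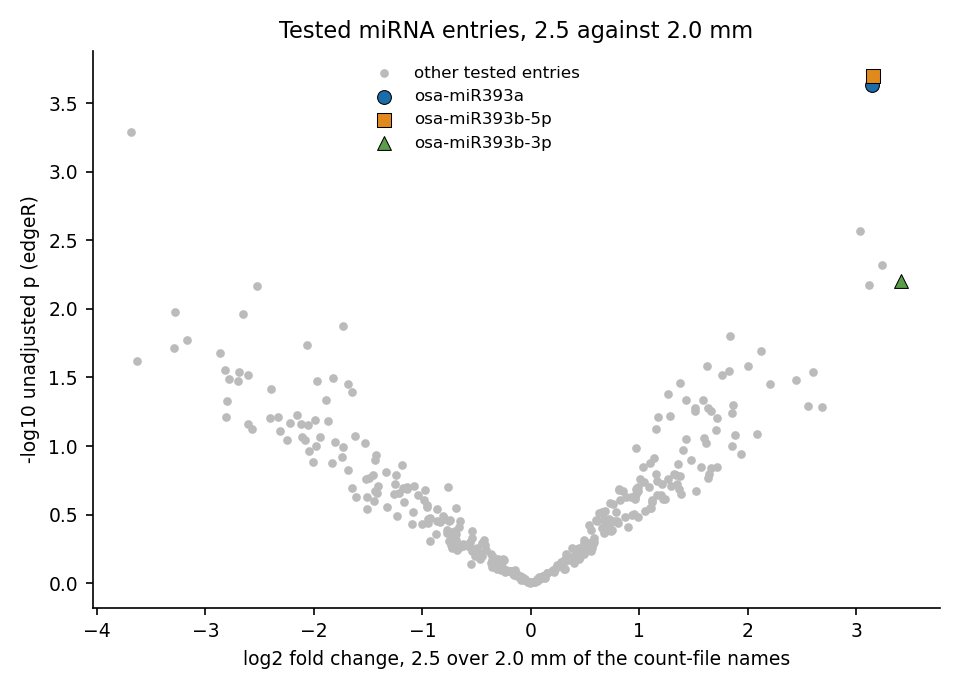
Log2 fold change at 2.5 against 2.0 mm and -log10 of the unadjusted edgeR p for the 371 tested miRNA entries; coloured markers are the 3 miR393 entries and grey points all others. Both 5p entries have the smallest p-values and osa-miR393b-3p the largest increase, 3.41.

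Scaled to all reads of a table, unassigned reads included, in place of miRNA reads, the 2.5 mm libraries again had the highest levels. Of all reads the family had 10.8 ± 2.21 CPM at 0.4 mm, 129 ± 90.3 CPM at 2.0 mm and 870 ± 321 CPM at 2.5 mm (SD, n = 3 each). The 2.5 mm libraries spanned 501 to 1090.4 CPM of all reads and the 2.0 mm libraries 26.3 to 195 CPM, so the groups did not overlap on this scale either. Both scales use the same miR393 counts, and the number of other entries without overlap between these groups was not counted. In the edgeR fit on this scale, however, neither 5p entry was called at 2.5 against 2.0 mm, with a log2 fold change of 2.67 and an adjusted p of 0.134 for each. miRNA reads were 0.675% to 0.933% of all reads at 0.4 mm, 1.27% to 2.51% at 2.0 mm and 1.32% to 1.51% at 2.5 mm. These totals were listed for 26 libraries, which leaves out all of 1.6 mm and 1.0 mm replicate 3.

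The 5p reads were divided almost evenly between osa-miR393a and osa-miR393b-5p. Pooled over the 30 libraries, osa-miR393a took 50.1% of them (exact 95% binomial interval 49.7% to 50.4%), and the interval covered 50% in 29 of 30 libraries. The exception was 1.4 mm replicate 2, where the interval was 42.4% to 49.4%. In the 26 libraries with at least 100 5p reads the share lay between 45.0% and 55.8%. The products of these loci are known to be nearly identical in sequence, so counts of each entry alone are uncertain. No source used here gives the authors' rule for reads that match both, and whether any read was assigned to either entry at random or to both was not tested.

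The share of the 3p strand in the family differed far more between libraries. It was 27.2% pooled over all libraries, with a median of 29.7% and a range from 4.28% in 1.6 mm replicate 3 to 65.3% in 1.6 mm replicate 1. In 9 libraries the 3p entry exceeded each of the 5p entries, and in 3 libraries, 0.8 mm replicate 3 and 1.6 mm replicates 1 and 2, it exceeded their sum. The share was 28.8% ± 5.11 at 0.4 mm, 19.0% ± 12.2 at 2.0 mm and 26.7% ± 6.00 at 2.5 mm (SD, n = 3 each), and the ranges of these groups overlap. The intervals hold for counting error alone, because without molecular identifiers PCR copies count as separate reads.

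**Figure D4:**
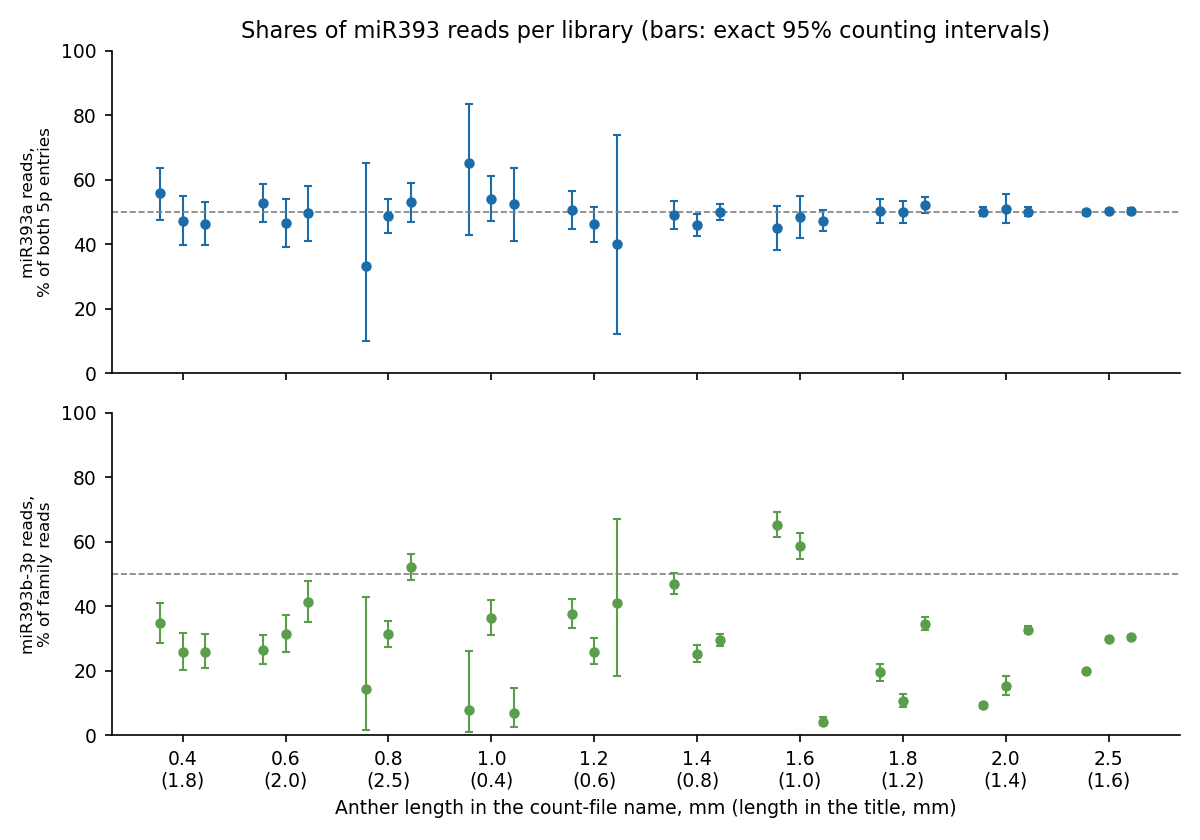
Share of osa-miR393a in the reads of both 5p entries (upper panel) and of osa-miR393b-3p in the reads of the family (lower panel), in percent, per library and anther length with the title's length in brackets; bars are exact 95% counting intervals and the dashed line marks 50%. The upper shares gather at 50% and the lower ones range from 4.28% to 65.3%.

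Across the 10 group means of log2 CPM, Pearson's r was 0.99 between osa-miR393a and osa-miR393b-5p, 0.96 between osa-miR393b-3p and osa-miR393b-5p and 0.93 between osa-miR393a and osa-miR393b-3p. These points share libraries and depth, and the 5p entries may share reads. Without 2.5 mm the values were 0.98, 0.83 and 0.71. Without the 2.5 mm libraries the 3p entry thus followed the 5p entries more loosely. As the 5p reads were split almost evenly, the r between osa-miR393a and osa-miR393b-5p cannot show whether these entries behave alike.

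The other miRNA families of the auxin pathway were taken from a fixed list. miR160 and miR167 target mRNAs of auxin response factors, the transcription factors downstream of the receptors, and miR390 triggers small interfering RNAs against further auxin response factors. Of 17 entries in these families 16 were tested. Between the 10 lengths 3 of 3 miR393 entries differed, beside 10 of these 16, where 67.4% of all tested entries did. In late against early anthers the 3 miR393 entries were called higher, with a median log2 fold change of 2.76, whereas 5 of the 16 were higher and 2 lower, with a median of -0.19. Over all tested entries edgeR called 48% higher and 24.3% lower, with a median of 1.11. DESeq2 called 11 of the 16 in place of 7, and 308 of all 371 entries in place of 268. At 2.5 against 0.4 mm the median was 5.59 for miR393, with 3 higher, and 0.10 for the 16, with 5 higher and 2 lower, beside 29.9% higher, 19.7% lower and a median of 0.85 over all tested entries. At 2.5 against 2.0 mm edgeR called 0 of the 16 and 2 of all 371 tested entries, and DESeq2 called 0 and 10. Of the 16, 3 were below an unadjusted edgeR p of 0.05, in both directions. Their log2 fold changes were 3.23 for osa-miR160f-5p, 1.27 for osa-miR167h-3p and -2.52 for osa-miR167c-3p. The share of all tested entries below that limit was not counted.

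The most abundant entry of each of these families, by mean CPM over the 30 libraries, gives the scale. osa-miR167dehi-5p had 3751 ± 473 CPM at 0.4 mm, 78420 ± 31867 CPM at 1.4 mm, 41078 ± 42793 CPM at 2.0 mm and 64365 ± 10423 CPM at 2.5 mm (SD, n = 3 each). It was higher by 4.13 on the log2 scale at 2.5 against 0.4 mm (SE 0.77, edgeR adjusted p = 7.02e-05) and already higher by 2.20 in mid against early anthers (SE 0.41, adjusted p = 0.00016), a comparison in which no miR393 entry was called. osa-miR390-5p had 4863 ± 1142 CPM at 0.4 mm, 9876 ± 480 CPM at 1.4 mm and 4466 ± 1372 CPM at 2.5 mm (SD, n = 3 each). osa-miR160e-5p had 505 ± 191 CPM at 2.5 mm and 1392 ± 551 CPM at 0.4 mm (SD, n = 3 each), a log2 fold change of -1.47 that was not called (SE 0.74, edgeR adjusted p = 0.0988). It does not stand for its whole family. osa-miR160f-5p went the other way and was the more abundant of the pair at 2.5 mm, with 2299 ± 1521 CPM there and 96.7 ± 13.5 CPM at 0.4 mm (SD, n = 3 each). Whether miR393 differed from these entries in its change was not tested.

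**Figure D5:**
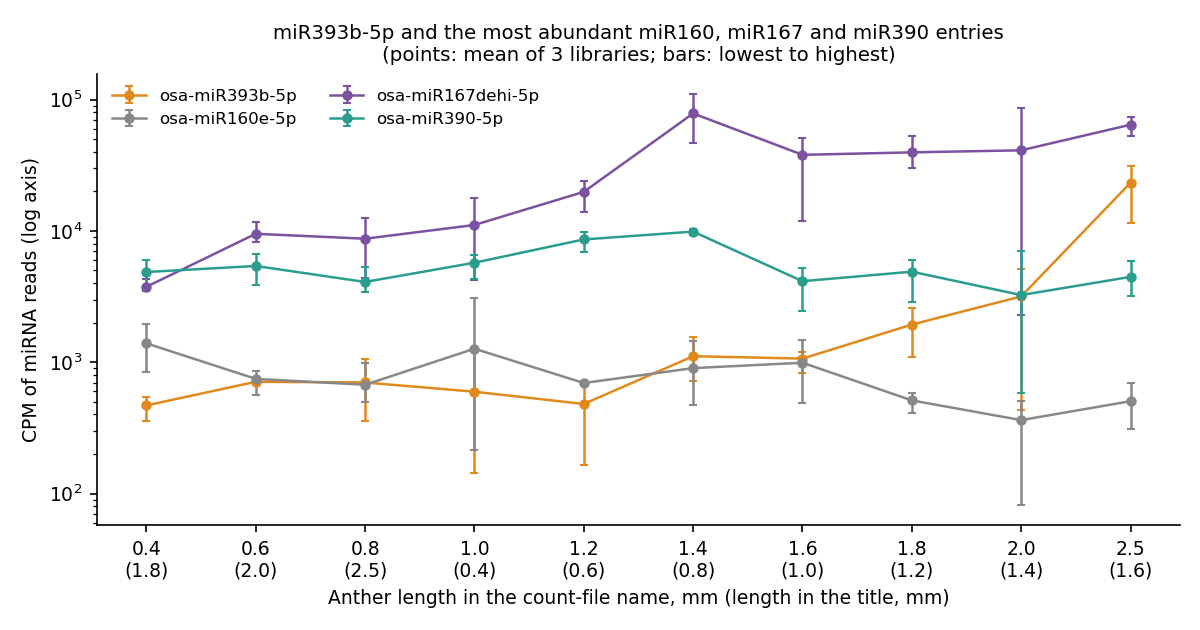
CPM (log axis) of osa-miR393b-5p and of the miR160, miR167 and miR390 entries most abundant over the 30 libraries, by anther length, with the title's length in brackets; points are means of 3 libraries and bars run from the lowest to the highest library. The mean of osa-miR393b-5p is below that of osa-miR390-5p up to 2.0 mm and above it at 2.5 mm, where osa-miR167dehi-5p is higher than both.

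The tested entries outside the family whose group means of log2 CPM were most like those of osa-miR393b-5p were osa-miR397b with r = 0.96, osa-miR1864 with r = 0.96, osa-miR5485 with r = 0.93, osa-miR160f-5p with r = 0.92 and osa-miR396ab-5p with r = 0.92, each over 10 groups that share their libraries. Without 2.5 mm these values were 0.86, 0.92, 0.79, 0.67 and 0.88. The most abundant of them was osa-miR396ab-5p, of a family that targets mRNAs of growth-regulating factors, with 14849 ± 8251 CPM at 2.5 mm and 620.2 ± 252 CPM at 0.4 mm (SD, n = 3 each). osa-miR397b, of a family that targets laccase mRNAs, had 165 ± 94.6 CPM at 2.5 mm (SD, n = 3) and 0 reads in the 3 libraries of 0.4 mm, where 3 counts correspond to 13.8 to 16.1 CPM. osa-miR160f-5p had 2299 ± 1521 CPM at 2.5 mm and 96.7 ± 13.5 CPM at 0.4 mm (SD, n = 3 each). osa-miR1864 and osa-miR5485 were rare, with 67.9 ± 13.8 CPM and 151 ± 54.4 CPM at 2.5 mm (SD, n = 3 each).

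The mRNAs of the auxin receptors were not analysed here. None of the 35594 gene IDs of the mRNA tables occurs in the reference table of rice genes, and 0 of that table's entries carry the name of a TIR1 or AFB gene, so levels of miR393 cannot be set beside those of its known targets.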

How the data were processed

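Groups and replicate numbers were taken from the sample titles, and replicates are biological per the series' design text. For each small RNA library the authors deposited 2 tables of raw counts of reads per miRNA entry, which were equal in 30 of 30 libraries. The submitters' processing notes name cutadapt 3.0, FastQC 0.12 and Bowtie2 2.5.2 among their tools, with no rule for reads that match several entries. In 26 libraries the table also lists unassigned reads. The other 4, 1.0 mm replicate 3 and the 3 of 1.6 mm, name another reference set. The mRNA tables, in FPKM, were not used.

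CPM were computed per total of miRNA reads (7527 to 584897 per library). All entries were fitted in edgeR 4.0.16 under R 4.3.3 (filterByExpr, TMM, glmQLFit, glmQLFTest) with the 10 lengths as 1 factor, which kept 371 entries holding 99.8% of miRNA reads, and p-values were adjusted over all of them by Benjamini-Hochberg. The script was tested on simulated data. SE were derived from the F statistic. Fold changes carry TMM scaling and can differ from ratios of CPM. Exact intervals are Clopper-Pearson at 95%, from scipy 1.17.1.

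Every miR393 entry is named, with the most abundant entry of miR160, miR167 and miR390 and the 5 tested entries most correlated with osa-miR393b-5p over the 10 group means (log2 CPM with a prior count of 2). The members, lists and contrasts were chosen with earlier results of these data known. Alternatives were DESeq2 1.42.0, no TMM, no filter, a replicate block, a term for the other reference set or its 4 libraries left out, the compared lengths alone, adjusted p alone, counts summed per family and each of 30 libraries left out. Chosen after seeing the data were leaving out the 2 libraries under 50000 miRNA reads, scaling to all reads in the 26 libraries that list them, summing both 5p entries, and leaving out 2.5 mm.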

Additional observations from a re-analysis of the deposited data

How the results depend on the processing

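The 3 entries gave 15 values in the test over all lengths and in 4 contrasts, and 618 of 621 alternatives kept both their direction and their side of the threshold. The exceptions were the test over all lengths for osa-miR393b-3p, whose adjusted p was 0.103 without the 2.5 mm libraries, and mid against early anthers, where leaving out 1 library at a time gave log2 fold changes of -0.919 to 0.797 for osa-miR393b-3p and of -0.124 to 0.647 for osa-miR393b-5p, below 0 in each case without 1.0 mm replicate 2 (titled 0.4 mm). The count of calls among the 27 tests of neighbouring lengths was less stable. It was 2 in edgeR, 3 with DESeq2, and 0 without TMM, without the filter, with the 4 libraries of the other reference set left out, in the compared lengths alone, and with the 2 shallow libraries left out. Scaled to all reads, in a fit that also lacks those 4 libraries, it was 0 as well, so the scaling cannot be told apart from leaving them out. With 1 library left out it was 0 to 3, and it was above 0 only without 1.8 mm replicate 2 or 2.0 mm replicate 3. Over those 30 fits the log2 fold change of osa-miR393b-5p at 2.5 against 2.0 mm was 2.52 to 3.39, with an adjusted p of 0.0400 to 0.576. DESeq2 gave larger log2 fold changes than edgeR for osa-miR393a, osa-miR393b-5p and osa-miR393b-3p in late against mid anthers (3.31, 3.35 and 3.21) and at 2.5 against 0.4 mm (7.04, 6.99 and 6.81). Summed per family, miR393 had 2.95 (SE 0.79, edgeR adjusted p = 0.173 over 229 families) at 2.5 against 2.0 mm. With the replicate number as a block the count was 0 and the adjusted p of osa-miR393b-5p in that step 0.0915, and the block changed no other call of the family. Titles link same-numbered libraries by that number alone. The correlation of their deviations ran from -0.615 to 0.792 over 135 pairs, with a median of 0.024, and was above 0.1 in 35. Whether any of these libraries are paired was not tested. In late against early anthers the count of called miR160, miR167 and miR390 entries was 7 in edgeR and 11 with DESeq2. Over all 371 tested entries it was 268 and 308. The causes of these changes were not tested. Depth limits the shallowest libraries most, where 3 counts correspond to 399 CPM at 0.8 mm replicate 1.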
